A study of Drosophila melanogaster with 2 samples.

Results

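The genes described here are 6 genes for seminal fluid proteins of *Drosophila melanogaster*: *SP* (FBgn0003034), *Acp26Aa* (FBgn0002855), *Acp36DE* (FBgn0011559), *Acp53Ea* (FBgn0015584), *Acp62F* (FBgn0020509) and *Acp95EF* (FBgn0002863). They were taken by name, through their FlyBase identifiers, from the 15423 genes listed in 2 deposited tables of single-nucleus RNA sequencing (snRNA-seq). The nuclei came from dissections made for nephrocytes, the filtration cells of the fly, in adult males and females aged 5 to 7 d. The flies of both sexes were w1118 and carried Dot-Gal4 with UAS-GFP.nls, so that the *Dot-Gal4* driver put green fluorescent protein into the nucleus of the cells it is active in. By the labels, the strain was kept at 18 °C and 50 flies were pooled per tube, dissected 10 at a time. By the methods, the nuclei were stained with Hoechst and sorted before droplet capture, and no gate on green fluorescence is named. One sample was labelled male and another female, with no replicate, so no test between tables or between groups of nuclei was possible and none was made. The kit version and the temperature differ between the labels and the study's methods.

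No column of either table names a sample. The tables are therefore called male-named and female-named after the sex in their deposited names, and no sex was assigned from values. There were 5978 nuclei and 14930 genes in the male-named table, at a median depth of 1481 unique molecular identifiers (UMIs, counted RNA molecules) per nucleus, and 7890 nuclei and 13408 genes in the female-named table, at a median depth of 1315 UMIs. No nucleus in either table had fewer than 500 UMIs, and 14 cell barcodes occurred in both. Each table lists only genes with at least 1 UMI, so a gene that a table does not list was taken as 0 UMIs there. Levels are given as CPM, the UMIs of a gene in every 1000000 UMIs counted over a group of nuclei. A range in parentheses is an exact 95% interval, Poisson for levels, Clopper-Pearson for shares and conditional for ratios. Such intervals cover counting error only.

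Seminal fluid is made largely by the male accessory glands, paired secretory organs whose products pass to the female at mating. Most of the gland consists of main cells, and a smaller number of secondary cells lies among them. The proteins change egg laying, sperm storage and the female's readiness to mate again, and sex peptide, the product of *SP*, acts through the sex peptide receptor encoded by *SPR*. The glands are no part of the nephrocytes that were dissected.

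In the male-named table, all 6 genes were found, with 6724 UMIs together in 1994 of 5978 nuclei (33.4%). *SP*, which encodes sex peptide, had 221 UMIs in 200 nuclei of the male-named table and 0 UMIs in the female-named table. *Acp26Aa*, which encodes ovulin, a prohormone-like protein that stimulates ovulation, had 372 UMIs in 284 nuclei of the male-named table and 0 UMIs in the female-named table. *Acp36DE*, whose product is a component of the mating plug that is needed for sperm storage, had 1641 UMIs in 816 nuclei of the male-named table and 14 UMIs in 14 nuclei of the female-named table.

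*Acp53Ea*, a small secreted peptide gene of the same family as the *Acp53C14* genes, had 996 UMIs in 665 nuclei of the male-named table and 0 UMIs in the female-named table. *Acp62F*, which encodes a trypsin inhibitor, had 2135 UMIs in 928 nuclei of the male-named table and 5 UMIs in 5 nuclei of the female-named table. *Acp95EF*, which encodes a short secreted gland peptide, had 1359 UMIs in 791 nuclei of the male-named table and 0 UMIs in the female-named table. The 6 genes thus ranged over about a factor of 10 in UMIs within the male-named table. UMIs of such a library are counted near the 3′ end and were not scaled by gene length.

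All 6 genes were at least 10-fold higher in the male-named table. Over all 11736 genes with at least 20 UMIs in the nuclei compared, 1162 were (9.9%), and the median ratio over those genes was 1.0. The median over the 6 genes was at least 240.3, since 4 of the 6 ratios are lower bounds. *Acp36DE* was at 90.5 CPM (86.18 to 94.998) in the male-named table and 0.733 CPM (0.401 to 1.23) in the female-named table, a ratio of 123.5 (73.4 to 226.5). *Acp62F* was at 117.8 CPM (112.8 to 122.9) in the male-named table and 0.262 CPM (0.0850 to 0.611) in the female-named table, a ratio of 450.0 (192.5 to 1387). For the other 4 genes, with 0 UMIs in the female-named table, the ratio was set against a floor of 3 counts for the table, 0.157 CPM. The upper end of the exact two-sided interval for 0 UMIs is somewhat higher, 0.193 CPM. Against that floor, *SP* was at least 77.6-fold higher in the male-named table, *Acp26Aa* at least 130.7-fold, *Acp53Ea* at least 349.9-fold and *Acp95EF* at least 477.4-fold.

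The 19 UMIs of the female-named table lay in 19 nuclei of 11 clusters, 1 in each nucleus, and none of these nuclei carried a barcode found in both tables. Both genes that gave them lie over another gene in the RefSeq annotation of the Release 6 assembly, *Acp36DE* over *Fas3*, which encodes the adhesion protein fasciclin 3, and *Acp62F* over *Mrtf*, which encodes a cofactor of serum response factor. Of the 14 nuclei with *Acp36DE*, 13 also held a UMI of *Fas3*, a gene found in 54.4% of all nuclei of that table. Of the 5 nuclei with *Acp62F*, 4 held a UMI of *Mrtf*, found in 26.2% of them. The median depth was 4085 UMIs in the 19 nuclei and 1315 UMIs in the table. *Acp95EF* also lies over another gene, *Spase22-23*, for a subunit of the signal peptidase, and was at 0 UMIs in the female-named table, where *Spase22-23* had 738 UMIs. How reads over such overlaps were assigned is not given in the sources used here, and its part in the 19 UMIs was not tested.

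**Figure D1:**
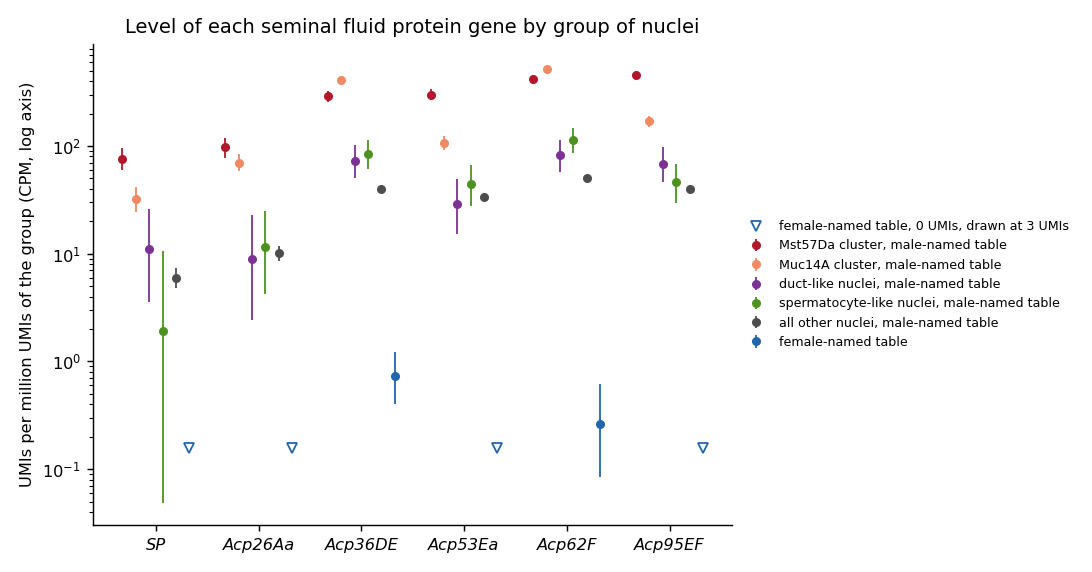
Level of each of the 6 genes (CPM, log axis) in 5 groups of nuclei of the male-named table and in the female-named table, with exact 95% Poisson intervals. Open triangles mark 0 UMIs in the female-named table, drawn at the floor of 3 counts (0.157 CPM). Each gene is highest in the *Mst57Da* and *Muc14A* clusters, lies between 5.96 and 50.5 CPM in the remaining nuclei of the male-named table, and reaches at most 0.733 CPM in the female-named table.

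To ask which nuclei carried these genes, all nuclei of both tables were clustered without them and without 55 related genes, so that the members had no part in the grouping. Of 50 clusters, 2 were named male accessory gland-like from an 18-gene marker list that holds none of the 6 genes. They comprised 603 nuclei of the male-named table (10.1%, 9.33 to 10.9) and 2 of 7889 nuclei of the female-named table. The *Mst57Da* cluster, called here after a gland gene that is high in it, held 416 nuclei of the male-named table at a median depth of 1364 UMIs, and 17 of the 18 gland markers were raised in it. The *Muc14A* cluster, called after a mucin gene among its leading genes, held 187 nuclei at a median depth of 6418 UMIs, and 15 of the 18 markers were raised. *prd*, which encodes the transcription factor Paired and is needed in the fly for the gland to form and is itself on the marker list, was at 34.8 CPM in the *Muc14A* cluster, 6.25 CPM in the *Mst57Da* cluster and 1.17 CPM in the other nuclei. A further cluster of 43 nuclei was named ejaculatory duct and bulb-like, with 3 of 7 markers raised, of which 4 were found in the tables. These markers summed to 8134 CPM in it and to 9517 CPM in the female-named table, so this name rests on few markers. A cluster of 55 nuclei was named spermatocyte-like, with 10 of 12 markers raised. The labelled cell type was found in 1 small cluster, in which all 6 nephrocyte markers were raised, with 61 nuclei of the male-named and 36 of the female-named table. Doublets were not removed.

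The gland-like nuclei held 57.3% of the 6 genes' UMIs in the male-named table. Summed over the 6 genes, the level was 1420 CPM (1376 to 1466) in the gland-like nuclei and 186.2 CPM (179.4 to 193.1) in the other 5375 nuclei. *SP* was at 47.5 CPM (39.7 to 56.5) in the gland-like nuclei and 5.97 CPM (4.81 to 7.32) in the other nuclei, a ratio of 7.97 (6.05 to 10.5). *Acp26Aa* was at 79.6 CPM (69.3 to 90.9) in the gland-like nuclei and 10.1 CPM (8.59 to 11.8) in the other nuclei, a ratio of 7.87 (6.37 to 9.73). The genes for sex peptide and ovulin thus had nearly the same ratio.

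*Acp36DE* was at 364.8 CPM (342.4 to 388.2) in the gland-like nuclei and 42.2 CPM (39.0 to 45.6) in the other nuclei, a ratio of 8.64 (7.82 to 9.55). *Acp62F* had the highest ratio, 9.02 (8.26 to 9.85), with 482.7 CPM (456.9 to 509.6) in the gland-like nuclei and 53.5 CPM (49.9 to 57.3) in the other nuclei. *Acp53Ea* had the lowest, 5.18 (4.56 to 5.88), with 175.0 CPM (159.6 to 191.5) in the gland-like nuclei and 33.8 CPM (31.0 to 36.8) in the other nuclei. *Acp95EF* was at 270.5 CPM (251.2 to 290.8) in the gland-like nuclei and 40.5 CPM (37.4 to 43.8) in the other nuclei, a ratio of 6.67 (5.99 to 7.43). The interval of *Acp53Ea* overlaps none of the other 5 intervals, whereas those of *SP*, *Acp26Aa*, *Acp36DE* and *Acp62F* overlap each other.

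None of the 6 genes was thus 10-fold higher in the gland-like nuclei on summed counts, while 239 of 10836 genes with at least 20 UMIs were (2.21%). At a 5-fold call, all 6 were, against 3.57% of all genes. With each nucleus thinned to 500 UMIs, so that shallow and deep nuclei weigh the same, the ratios were 10.1 to 16.9 and all 6 genes passed 10-fold, beside 2.09% of the 6874 genes with at least 20 UMIs after thinning. A coarser clustering (Leiden resolution 1) placed 1137 nuclei in gland-like clusters, and the median ratio over the 6 genes was then 3.42, against 7.92 here.

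Other secreted proteins of the gland gave a similar median ratio. Of 39 further accessory gland protein genes found in the tables, 37 could be compared, and 12 of them were at least 10-fold higher in the gland-like nuclei, with a median ratio of 7.65. These 37 ratios ran over 1.88 for *Acp54A1* to 17.9 for *Sfp84E*. Between the tables, 36 of the 37 were at least 10-fold higher in the male-named table, the exception being *Sfp79B*. These counts stand beside the same background of 2.21% and 9.9%. Part of the list served to name the clusters, so its ratios within the male-named table are a description of the naming too.

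Both gland-like clusters held all 6 genes, at different levels. *Acp53Ea* was at 107.2 CPM (92.5 to 123.7) in the *Muc14A* cluster and 298.7 CPM (265.2 to 335.4) in the *Mst57Da* cluster, a ratio of 0.359 (0.297 to 0.433). *Acp95EF* was at 170.0 CPM (151.2 to 190.4) in the *Muc14A* cluster and 453.8 CPM (412.2 to 498.5) in the *Mst57Da* cluster, a ratio of 0.375 (0.322 to 0.435). *SP* was at 31.9 CPM (24.1 to 41.5) in the *Muc14A* cluster and 76.0 CPM (59.6 to 95.5) in the *Mst57Da* cluster, a ratio of 0.420 (0.291 to 0.604). These genes were therefore lower in the *Muc14A* cluster as a share of all UMIs.

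*Acp36DE* ran the other way, with 406.1 CPM (376.8 to 437.1) in the *Muc14A* cluster and 289.4 CPM (256.4 to 325.5) in the *Mst57Da* cluster, a ratio of 1.40 (1.22 to 1.62). *Acp62F* did so less, with 519.6 CPM (486.4 to 554.5) in the *Muc14A* cluster and 415.3 CPM (375.6 to 458.2) in the *Mst57Da* cluster, a ratio of 1.25 (1.11 to 1.41). *Acp26Aa* was at 70.2 CPM (58.3 to 83.7) in the *Muc14A* cluster and 96.8 CPM (78.1 to 118.6) in the *Mst57Da* cluster, a ratio of 0.725 (0.549 to 0.959). Per nucleus, without scaling by depth, all 6 genes were higher in the *Muc14A* cluster, so that the direction of *SP*, *Acp26Aa*, *Acp53Ea* and *Acp95EF* turned with the scaling. The nuclei of that cluster were deeper, at a median of 6418 UMIs against 1364 UMIs. The share of all genes that were higher per nucleus there was not counted, so this direction cannot be called particular to the 6 genes. *SP* averaged 0.299 UMIs per nucleus in the *Muc14A* cluster and 0.175 in the *Mst57Da* cluster, and *Acp53Ea* 1.01 in the *Muc14A* cluster and 0.690 in the *Mst57Da* cluster. The 6 genes together averaged 12.2 UMIs per nucleus in the *Muc14A* cluster and 3.76 in the *Mst57Da* cluster, whose nuclei were less deeply covered.

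Genes of neighbouring tissues also differed between the gland-like clusters. *Dup99B*, a sex peptide-related gene of the ejaculatory duct, was at 97.5 CPM in the *Muc14A* cluster and 727.2 CPM in the *Mst57Da* cluster, outside 9 nuclei described further on. It is 1 of the 4 duct markers found. With the 9 nuclei kept, these summed to 2571 CPM in the *Muc14A* cluster and 4502 CPM in the *Mst57Da* cluster. They summed to 3768 CPM in the nuclei outside the gland-, duct- and spermatocyte-like clusters. Their ratios of gland-like over other nuclei ran over 0.329 to 1.80, with a median of 0.832. The sperm gene *dj* was at 21.1 CPM (14.9 to 29.1) in the *Muc14A* cluster, 175.9 CPM (150.4 to 204.5) in the *Mst57Da* cluster and 172.0 CPM (138.3 to 211.4) in the spermatocyte-like nuclei. The 12 spermatocyte markers, of which *dj* is 1, summed to 652.5 CPM in the *Muc14A* cluster with *aly*, *can* and *sa* at 0. They summed to 579.8 CPM in the *Mst57Da* cluster with none at 0, and to 4438 CPM in the spermatocyte-like nuclei. In the nuclei outside the gland-, duct- and spermatocyte-like clusters, they summed to 592.5 CPM (580.0 to 605.2), near both gland-like values. *dj* alone was at 22.2 CPM (19.8 to 24.7) in those outside nuclei. The part of spermatocyte- or duct-like nuclei in the difference between the gland-like clusters was not tested.

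**Figure D2:**
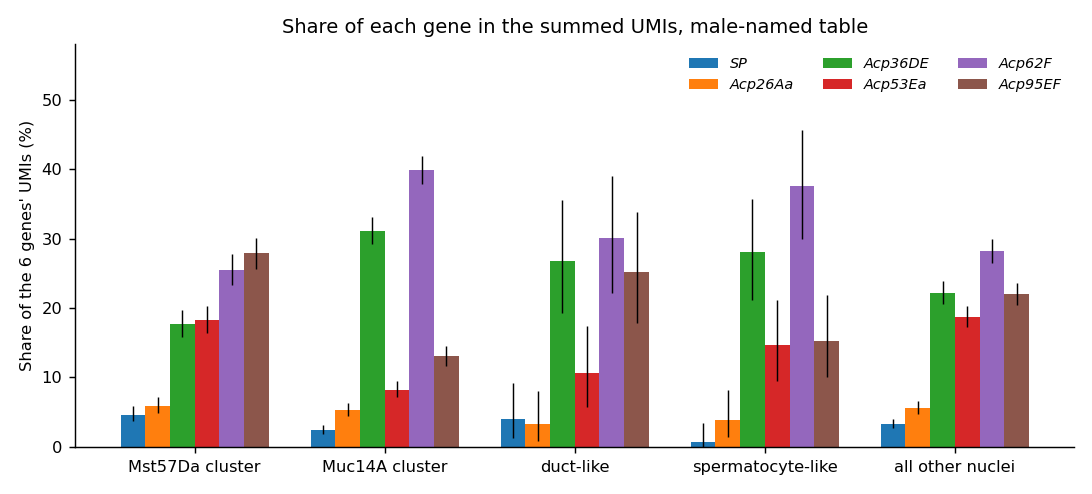
Share (%) of each gene in the summed UMIs of the 6 genes, for 5 groups of nuclei of the male-named table, with exact 95% binomial intervals. *Acp36DE* and *Acp62F* together dominate in the *Muc14A* cluster, with 31.1% and 39.8%, and the remaining nuclei at the right lie between both gland-like clusters for every gene but *Acp53Ea*, which is at 18.7% there and 18.3% in the *Mst57Da* cluster.

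*SP*, *Acp26Aa*, *Acp36DE*, *Acp53Ea*, *Acp62F* and *Acp95EF* were found together in the same nuclei, most of all in the *Muc14A* cluster. There, 109 of 187 nuclei (58.3%, 50.9 to 65.4) held UMIs of 4 or more of the 6 genes, and only 2 held none. In the *Mst57Da* cluster, 87 of 416 nuclei (20.9%, 17.1 to 25.1) held 4 or more and 77 (18.5%) held none. In the other nuclei, 57 of 5375 (1.06%, 0.804 to 1.37) held 4 or more, 1044 (19.4%) held exactly 1 of the genes, and 3905 (72.7%) held none. Of the 253 nuclei of the male-named table with 4 or more of the genes, 77.5% were gland-like.

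These shares follow depth as well as content. After thinning to 500 UMIs per nucleus, both gland-like clusters had nearly the same share of nuclei with none of the 6 genes, 41.2% (34.0 to 48.6) in the *Muc14A* cluster and 41.1% (36.34 to 46.004) in the *Mst57Da* cluster, against 90.4% (89.5 to 91.1) in the other nuclei. At least 2 of the genes were then found in 27.3% (21.0 to 34.3) of the *Muc14A* cluster, 30.05% (25.7 to 34.7) of the *Mst57Da* cluster and 0.837% (0.611 to 1.12) of the other nuclei. No nucleus was too shallow to be thinned, since none had under 500 UMIs.

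**Figure D3:**
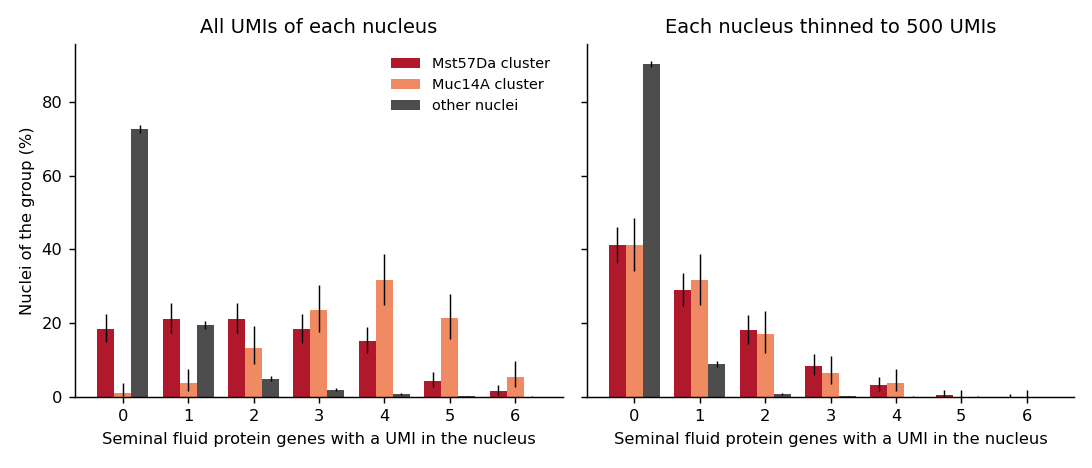
Share of nuclei (%) by the number of the 6 genes with a UMI in the nucleus, for the *Mst57Da* cluster, the *Muc14A* cluster and the other nuclei of the male-named table, with exact 95% binomial intervals. The left panel uses all UMIs and the right panel 500 UMIs per nucleus. With all UMIs, nuclei of the *Muc14A* cluster peak at 4 genes (31.6%), and after thinning both gland-like clusters peak at 0, with 41.2% and 41.1%.

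All 6 genes at once were found in 20 nuclei of the male-named table, 16 of them gland-like (10 in the *Muc14A* cluster and 6 in the *Mst57Da* cluster). These 16 held 9 to 50 UMIs of the 6 genes, with a median of 17.5, at depths of 1814 to 22320 UMIs. The nucleus with 50 had only 1814 UMIs in all and held 17 of *Acp36DE*, 11 of *Acp95EF*, 10 of *Acp53Ea*, 8 of *Acp62F* and 2 each of *SP* and *Acp26Aa*. The remaining 4 nuclei held 10 to 20 UMIs at depths of 5500 to 26537 UMIs. Of them, 3 belonged to a deep, unnamed cluster led by *DIP-beta* and 1 to a Malpighian principal-like cluster. The part of doublets in these nuclei was not tested. The nucleus with the most UMIs of the 6 genes, 55, lay in the *Muc14A* cluster and held 26 of *Acp36DE* and 18 of *Acp62F* but none of *SP*.

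*SP* was the gene most often missing. A UMI of *SP* was found in 111 of 603 gland-like nuclei (18.4%, 15.4 to 21.7) and in 89 of 5375 other nuclei (1.66%, 1.33 to 2.03), and no nucleus held more than 3. *Acp26Aa* was found in 23.9% (20.5 to 27.5) of the gland-like and 2.60% (2.20 to 3.07) of the other nuclei. The median depth behind these shares was 1920 UMIs in the gland-like and 1441 UMIs in the other nuclei. Both genes were usually present as 1 UMI, in 86.5% of the gland-like nuclei with *SP* and 70.1% of those with *Acp26Aa*.

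*Acp62F* was found in 60.5% (56.5 to 64.5) of the gland-like and 10.5% (9.67 to 11.3) of the other nuclei, and *Acp95EF* in 55.6% (51.5 to 59.6) of the gland-like and 8.48% (7.75 to 9.26) of the other nuclei. *Acp36DE* was found in 54.7% (50.7 to 58.8) of the gland-like and 9.04% (8.29 to 9.84) of the other nuclei, and *Acp53Ea* in 44.8% (40.8 to 48.8) of the gland-like and 7.35% (6.67 to 8.08) of the other nuclei. Within the *Muc14A* cluster alone, *Acp62F* reached 93.0% (88.4 to 96.2) and *Acp36DE* 88.2% (82.7 to 92.5) of the nuclei. Thinned to 500 UMIs, the 6 shares were 5.64 to 27.9% in the gland-like and 0.353 to 2.96% in the other nuclei.

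Finding 1 of the genes went with finding another. Pairs of other genes were not counted, so the counts of pairs below have no background share and cannot be called particular to these genes. The nuclei share 1 library and are no replicates, and the part of depth was not tested. In the *Mst57Da* cluster this held for all 15 pairs of genes, and for 8 of them the binomial intervals with and without the other gene did not overlap, whichever gene of the pair came first. A UMI of *Acp62F* was present in 127 of the 204 nuclei with *Acp95EF* (62.3%, 55.2 to 68.9) and in 64 of the 212 without it (30.2%). The median depths were 1452 UMIs with *Acp95EF* and 1307.5 UMIs without it. *SP* was present in 40 of the 172 nuclei with *Acp53Ea* (23.3%, 17.2 to 30.3) and in 24 of the 244 without it (9.84%). In the *Muc14A* cluster, 13 of the 15 pairs ran this way, and 2 had such intervals in both orders.

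These 2 pairs were *Acp53Ea* with *Acp95EF* and *Acp26Aa* with *Acp36DE*. *Acp95EF* was present in 79.6% (70.3 to 87.1) of the 98 nuclei with *Acp53Ea* and 59.6% (48.6 to 69.8) of the 89 without it, at median depths of 7095.5 and 5502 UMIs. *Acp36DE* was present in 69 of the 70 nuclei with *Acp26Aa* (98.6%, 92.3 to 99.96) and 82.1% (73.9 to 88.5) of the 117 without it, at median depths of 6840 and 6188 UMIs. In the other nuclei, all 15 pairs were found together more often, with intervals that did not overlap, but the depth of these nuclei varied widely. Among the 2686 other nuclei below their median depth, 11 of the 15 pairs were found together more often, 7 of them with intervals that did not overlap. The genes of a pair occurred together in 0 to 18 of these nuclei, and 63 of them (2.35%) held 2 or more of the genes.

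The summed level in the other nuclei of the male-named table was spread over every cluster of at least 20 nuclei. Of 39 further clusters with at least 20 nuclei of this table, all 39 held a UMI of at least 1 of the 6 genes. *SP* was found in 31 of them, *Acp26Aa* in 37, *Acp95EF* in 38 and each of the remaining genes in all 39. Their summed level ran over 107.4 to 365.9 CPM with a median of 183.9 CPM. It was 1630 CPM (1550 to 1713) in the *Mst57Da* cluster and 1305 CPM (1252 to 1360) in the *Muc14A* cluster. The lowest was an enterocyte-like cluster led by *CG15818* and the highest an unnamed cluster led by *CG13059*. For no gene did the point value of any of the 39 clusters exceed that of the lower gland-like cluster. For each gene, an interval was taken only for the highest of the 39, so wider intervals of smaller clusters were not compared. For 2 genes this interval of the highest cluster held the lower gland-like value. *Acp53Ea* was at 86.3 CPM (52.7 to 133.3) in a cluster led by *CG40198*, against 107.2 CPM in the *Muc14A* cluster. *SP* was at 15.8 CPM (1.91 to 57.0), from 2 UMIs, in a cluster led by *CG13676*, against 31.9 CPM in the *Muc14A* cluster. The largest single value was 112.7 CPM (85.8 to 145.4) of *Acp62F* in the spermatocyte-like nuclei, against 415.3 CPM in the *Mst57Da* cluster. The 61 nuclei of the nephrocyte-like cluster were at 183.4 CPM (126.3 to 257.6), within the range of the rest. Over the 39 clusters, the summed level had a Pearson's r of 0.77 with the level of the gland gene *Mst57Da* and of -0.22 with the log10 median depth, as a description of clusters that share 1 library. Whether UMIs of the 6 genes in nuclei outside the gland-like clusters came from those nuclei or from RNA outside them was not tested.

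**Figure D4:**
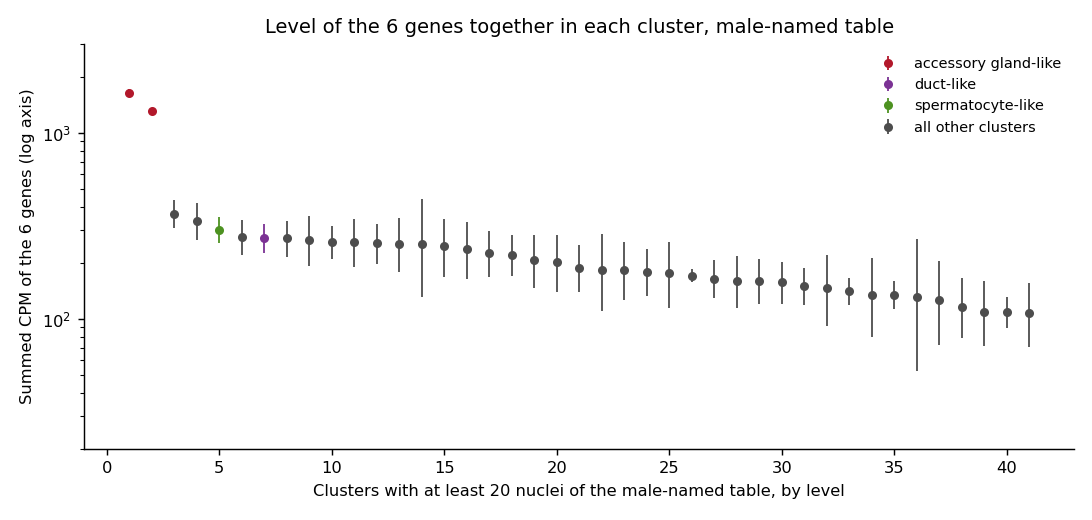
Summed level of the 6 genes (CPM, log axis) in each cluster with at least 20 nuclei of the male-named table, ordered by level, with exact 95% Poisson intervals. The gland-like clusters stand at 1630 and 1305 CPM, and the other 39 clusters between 107.4 and 365.9 CPM.

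Clusters named after tissues of the male tract other than the gland were not set apart for all of the genes. *Acp62F* was at 112.7 CPM in the spermatocyte-like nuclei and 50.5 CPM (46.9 to 54.3) in the nuclei outside the gland-, duct- and spermatocyte-like clusters, a ratio of 2.23 (1.68 to 2.91). *Acp36DE* was at 84.1 CPM (61.1 to 112.9) in the spermatocyte-like nuclei and 39.7 CPM (36.6 to 43.1) in those outside, a ratio of 2.12 (1.52 to 2.88). The intervals of the ratio for the other 4 genes hold 1. In the duct-like nuclei, *Acp36DE*, *Acp62F* and *Acp95EF* had ratios of 1.83 (1.25 to 2.60), 1.62 (1.13 to 2.25) and 1.73 (1.17 to 2.49), and the other 3 had intervals that hold 1. The share of all genes with intervals above 1 was not counted for either cluster. These counts thus have no background and cannot be called particular to the 6 genes. A single duct-like nucleus of 35463 UMIs held 12 of the 37 *Acp62F* UMIs and 9 of the 31 *Acp95EF* UMIs. Without it, the ratios were 1.69 (1.11 to 2.47) for *Acp36DE*, 1.19 (0.763 to 1.77) for *Acp62F* and 1.34 (0.830 to 2.04) for *Acp95EF*, and the last pair of intervals hold 1. Without the spermatocyte-like nucleus with the most UMIs of the 6 genes, the ratios in that cluster were 1.88 (1.31 to 2.62) for *Acp36DE* and 1.88 (1.37 to 2.53) for *Acp62F*. Leaving the duct- and spermatocyte-like nuclei out moved the summed level of the other nuclei to 179.4 CPM (172.5 to 186.4), against 186.2 CPM with them.

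The makeup of the 6 genes' UMIs in the other nuclei lay between that of the gland-like clusters for all 6. *Acp36DE* took 31.1% (29.2 to 33.1) of these UMIs in the *Muc14A* cluster, 17.8% (15.9 to 19.7) in the *Mst57Da* cluster and 22.7% (21.2 to 24.3) in the other nuclei. *Acp62F* took 39.8% (37.8 to 41.9) in the *Muc14A* cluster, 25.5% (23.3 to 27.7) in the *Mst57Da* cluster and 28.7% (27.1 to 30.4) in the other nuclei. *Acp53Ea* took 8.22% (7.12 to 9.42) in the *Muc14A* cluster, 18.3% (16.4 to 20.3) in the *Mst57Da* cluster and 18.2% (16.8 to 19.6) in the other nuclei. The share of *Acp53Ea* in the other nuclei was thus within the interval of the *Mst57Da* cluster, and without the duct- and spermatocyte-like nuclei it was 18.7% (17.2 to 20.3), slightly above it.

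*Acp95EF* took 13.0% (11.7 to 14.5) in the *Muc14A* cluster, 27.8% (25.6 to 30.1) in the *Mst57Da* cluster and 21.8% (20.3 to 23.3) in the other nuclei. *Acp26Aa* took 5.38% (4.49 to 6.38) in the *Muc14A* cluster, 5.94% (4.82 to 7.23) in the *Mst57Da* cluster and 5.44% (4.63 to 6.33) in the other nuclei, which the intervals do not tell apart. *SP* took 2.45% (1.85 to 3.17) in the *Muc14A* cluster, 4.66% (3.67 to 5.83) in the *Mst57Da* cluster and 3.21% (2.59 to 3.92) in the other nuclei. The largest distance between the gland-like nuclei as a whole and the other nuclei was 5.83 percentage points, for *Acp53Ea*, with 12.3% in the gland-like and 18.2% in the other nuclei. Thinned to 500 UMIs, the difference for *Acp36DE* and for *Acp95EF* had the opposite sign.

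UMIs of the 6 genes per nucleus grew less than the depth of the nucleus in the gland-like clusters and among the shallower other nuclei. In 4 bins of the *Mst57Da* cluster by depth, low to high, the mean was 3.41 (3.07 to 3.79), 3.38 (3.03 to 3.75), 3.82 (3.45 to 4.21) and 4.45 (4.06 to 4.88) UMIs of the 6 genes per nucleus, while the median depth ran over 659, 1040, 1801 and 4519 UMIs. In the *Muc14A* cluster, the mean was 8.85 (8.02 to 9.74), 11.4 (10.5 to 12.5), 11.1 (10.1 to 12.1) and 17.5 (16.4 to 18.8). In 8 bins of the other nuclei, the mean was 0.198 to 0.269 UMIs in the lower 4, at median depths of 573 to 1251 UMIs, and 1.92 (1.82 to 2.03) in the deepest, at 8572 UMIs. As a level, the shallowest of these bins had 441.6 CPM, and the 4 deepest had 190.0, 178.0, 170.1 and 166.0 CPM, so that over those 4 the UMIs of the 6 genes grew nearly in step with depth. A CPM of these genes therefore moved with the depth of the nuclei, most of all in the gland-like clusters, which differed between the groups compared above.

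**Figure D5:**
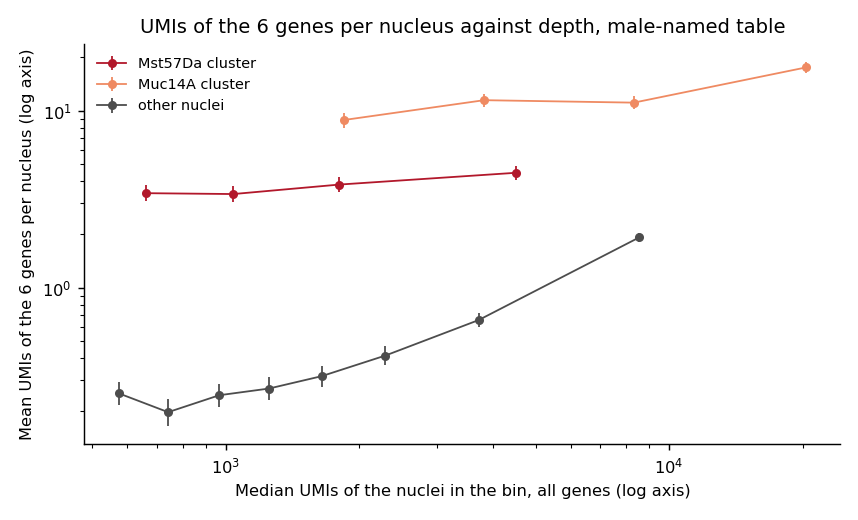
Mean number of UMIs of the 6 genes per nucleus (log axis) against the median depth of the nuclei (log axis), in 4 bins of each gland-like cluster and 8 bins of the other nuclei of the male-named table, with exact 95% Poisson intervals. Means stay within 3.38 to 4.45 in the *Mst57Da* cluster and reach 1.92 in the deepest other nuclei.

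Sex peptide works in the female with a network of male proteins that bind it to sperm. Of 8 network genes, *CG9997*, *Sems* and *aqrs* were at least 10-fold higher in the gland-like than in the other nuclei of the male-named table (2.21% of all genes were), and the other 5 were 4.88- to 9.69-fold higher. *Sems*, which encodes the protease seminase, had 86 UMIs in the gland-like and 30 in the other nuclei, a ratio of 16.3 (10.6 to 25.6). *aqrs* had 120 and 55 UMIs in these groups, a ratio of 12.4 (8.94 to 17.4), and *CG9997*, which encodes a protease homologue, had 140 and 72 UMIs, a ratio of 11.0 (8.25 to 14.9). Between the tables, 7 of the 8 were at least 10-fold higher in the male-named table, beside 9.9% of all genes. Of the 8 genes, *CG9997*, *Sems*, both lectin genes and *CG17575* had also served as markers in naming the clusters. The exception between the tables was *antr*, with 145 UMIs in the male-named and 55 in the female-named table.

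The network genes did not all share the pattern of *SP* between the gland-like clusters. Outside the 9 nuclei described next, *SP* was at 31.9 CPM in the *Muc14A* cluster and 79.1 CPM in the *Mst57Da* cluster, a ratio of 0.404 (0.280 to 0.581). *aqrs* had a ratio of 2.17 (1.36 to 3.58), *Sems* 1.83 (1.09 to 3.23) and *CG9997* 1.54 (1.04 to 2.33), whereas the intervals of *antr* and *intr* hold 1. The lectin genes *lectin-46Ca* and *lectin-46Cb* and the cysteine-rich secretory protein gene *CG17575*, known as products of the secondary cells, had ratios of 0.321 (0.223 to 0.460), 0.294 (0.197 to 0.433) and 0.101 (0.0628 to 0.155). As a share of all UMIs, genes of 1 network thus divided into those higher and those lower in the *Muc14A* cluster. In 187 nuclei of the *Muc14A* cluster and 412 of the *Mst57Da* cluster, *lectin-46Ca* had 52 and 84 UMIs and *lectin-46Cb* 43 and 76. Per nucleus, the lectin genes were thus higher in the *Muc14A* cluster, whose nuclei were deeper, so their direction turned with the scaling. *CG17575*, with 25 and 129 UMIs, was lower there by either measure.

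The last 3 of these genes and *Acp32CD* were concentrated in a few nuclei. These nuclei were picked after their values had been seen, so they are described only. In the male-named table, 9 nuclei had at least 50 UMIs of the 4 genes, and held 2649 of 4695 such UMIs (56.4%). They fell in 5 clusters, 4 of them in the *Mst57Da* cluster and none in the *Muc14A* cluster. The highest had 743 and 730 of these UMIs, at depths of 23749 and 23530 UMIs, and held 14 and 13 UMIs of *SP*, *Acp26Aa*, *Acp36DE*, *Acp53Ea*, *Acp62F* and *Acp95EF* together. Over the 9 nuclei, the 4 genes were at 27082 CPM (26060 to 28133) and the 6 genes at 429.4 CPM (309.5 to 580.4). In the gland-like nuclei without them, the 4 genes were at 260.2 CPM (241.2 to 280.3) and the 6 genes at 1434 CPM (1389 to 1480), and in the other nuclei without them the 6 genes were at 186.3 CPM (179.5 to 193.2). The 9 nuclei varied, from 0 to 14 UMIs of the 6 genes. The 4 in the *Mst57Da* cluster held 14, 13, 7 and 1, and the last 2 of these had only 2512 and 537 UMIs in all. *Abd-B*, which encodes the transcription factor of the secondary cells, had 24 UMIs in 5 of the 9 nuclei, at 245.4 CPM (157.2 to 365.1). It was at 14.6 CPM (7.97 to 24.5) in the *Mst57Da* cluster and 20.5 CPM (14.4 to 28.4) in the *Muc14A* cluster. Both were below the 57.1 CPM (53.4 to 61.0) of the other nuclei. For *Abd-B*, the *Mst57Da* cluster kept its 4 of the 9 nuclei and the other nuclei their 5. *prd* had 1 UMI in the 9 nuclei. No nucleus of the female-named table held more than 2 UMIs of the 4 genes.

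The receptor of sex peptide ran opposite to the ligand. *SPR* had 6291 UMIs in 430 nuclei of the female-named table (329.3 CPM, 321.2 to 337.5) and 89 UMIs in 75 nuclei of the male-named table (4.91 CPM, 3.94 to 6.04), a ratio of 67.1 (54.4 to 83.6). Of its UMIs in the female-named table, 79.4% lay in a single cluster of 119 nuclei, all of that table, which no marker list named and which was led by *SPR* itself, *rn* and *SLO2*. In that cluster, 118 of 119 nuclei held *SPR*, with a median of 34 and a highest value of 156 UMIs, and none held a UMI of the 6 genes. Outside it, *SPR* was found in 312 of 7770 nuclei (4.02%) at 70.7 CPM (66.9 to 74.6). Within the male-named table, *SPR* had 10 UMIs in the gland-like and 79 in the other nuclei, a ratio of 0.719 (0.332 to 1.39) whose interval holds 1. *SP* and *SPR* thus came almost wholly from different tables.

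Outside the lists, 10 genes followed the summed level of *SP*, *Acp26Aa*, *Acp36DE*, *Acp53Ea*, *Acp62F* and *Acp95EF* most closely over the 41 clusters of the male-named table with at least 20 nuclei. The measure was Pearson's r of log2(CPM + 1), over 7159 genes with at least 100 UMIs. It is a description, since the clusters share 1 library and differ in depth and the gland-like pair weighs on each value. *CG17097* came first at 0.80, with 166.5 CPM in the *Mst57Da* cluster, 1117 CPM in the *Muc14A* cluster and 39.9 CPM in the other nuclei. *CG43392* followed at 0.79 and *CG43147*, the neighbour of *SP* in the annotation, at 0.78. Next came *BG642312* at 0.74, *whe* and *CG17472* at 0.64, *lncRNA:CR43239*, *CG43111* and *CG42789* at 0.63 and *BG642163* at 0.62. The 6 genes themselves had values of 0.42 (*SP*) to 0.92 (*Acp62F*) with their own sum. Of the 10 genes, 6 had 0 UMIs in the female-named table, *BG642312* had 334 there and *whe* 702.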

How the data were processed

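The deposited files are 2 tables of unnormalized UMI counts, 1 row per gene and 1 column per nucleus, which the authors made with Cell Ranger. The sources used here give neither its version nor the genome build or annotation. The members and gene lists were chosen with earlier results of these data known.

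FlyBase identifiers were matched to symbols (68 of 15423 had none). Nuclei with under 200 genes were dropped (0 male-named, 1 female-named). Both tables were clustered together in Python 3.11.15 with scanpy 1.11.5 and leidenalg 0.10.2 (counts scaled to 10000, 2000 variable genes, 30 principal components, 15 neighbours, Leiden resolution 2), leaving out 61 genes (the 6 members and 55 genes of the lists). A cluster was named where at least 3 markers were at least 3-fold above all other nuclei with a Poisson lower limit above them. Doublets were not removed. Named genes were the 6 members, the lists and the 10 genes with the most similar pattern. Ratios used summed counts, with 3 counts as the floor for 0. Thinning drew 500 UMIs per nucleus (seed 1). The ratio step was tested on simulated data. Sequences and coordinates are not printed. The tables' columns name no sample, and 14 barcodes occur in both.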

Additional observations from a re-analysis of the deposited data

How the results depend on the processing

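Of 52 summary values recomputed under the alternatives, 38 stayed within their interval (counts within 1.5-fold) and 14 moved. At Leiden resolution 1, gland-like nuclei numbered 1137 against 603, the median gland-like over other ratio was 3.42 against 7.92, and the median share of gland-like nuclei with a UMI was 34.5% against 49.8%. With gland-like nuclei taken as every nucleus with at least 5 UMIs of the gland list, the median ratio was 4.48, the median level in other nuclei 29.3 CPM against 37.2 CPM, and the largest difference in makeup 3.14 against 5.83 percentage points. Leaving nuclei with 5 such UMIs out of the other nuclei gave 27.5 CPM and 2 genes past 10-fold against 0, beside 2.71% and 2.21% of all genes. Thinning to 500 UMIs gave a median ratio of 12.4, a median share of 19.8%, a level of 44.3 CPM and 0 nuclei with all 6 genes against 16. Keeping all genes in the clustering put 1 gene past 10-fold (2.41% of all genes), and 6 passed a 5-fold call (3.57%). The gland-like minus other difference in makeup turned to -4.91 percentage points for *Acp36DE* (3.005 before) and 5.34 for *Acp95EF* (-2.73 before) after thinning, and to 0.682 for *Acp95EF* with gland-like nuclei taken by 5 UMIs. The causes were not tested. The alternative without duct- and spermatocyte-like nuclei, the ratios without 1 nucleus and the background after thinning were chosen after seeing the data, and the first moved no summary value. No paired analysis was possible because each sex has 1 sample. With 1 library per table, preparation and sex cannot be told apart.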
